A study of Mus musculus with 24 samples.

Results

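The genes of osteopontin, CD44 and a set of integrin chains were followed across 24 RNA-seq libraries of mouse liver. The 10 genes are Spp1, which encodes osteopontin, Cd44, and the integrin genes Itgav, Itgb1, Itgb3, Itgb5, Itgb6, Itgb8, Itga3 and Itga6. They were chosen by name, as the rows whose Ensembl identifier maps to these symbols, and are 10 of 33019 gene identifiers counted. The choice was made with earlier results of these data known. All 10 passed the filter on low counts and so stood among the 15851 genes tested. The mice were C57BL/6J aged 2 months, with 4 libraries in each of 6 groups. The groups were wild type (WT), hepatic deletion of Atg5 (Atg5 KO), hepatic deletion of Tsc1 (TSC1 KO), both deletions together (DKO), and both deletions with a further loss of p62 (p62 TKO) or of Nrf2 (Nrf2 TKO). Both TKO groups and DKO thus share the loss of Atg5 and Tsc1. The promoter that drove the deletions, the liver cells it reached and the number of animals were not given in the sources used here.

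Osteopontin is a secreted, acidic glycoprotein of bone matrix, bile duct epithelium and activated macrophages. It carries an Arg-Gly-Asp motif that is read by integrins with the alpha-v chain, and CD44, the main receptor for hyaluronan, can bind it as well. An integrin is a pair of an alpha and a beta chain. Alpha-v pairs with the beta chains of Itgb1, Itgb3, Itgb5, Itgb6 and Itgb8, and the pairs with Itgb6 or Itgb8 release active TGF-beta from its latent complex. The alpha chains of Itga3 and Itga6 pair with Itgb1, and Itga6 also with Itgb4, into receptors for laminin in basement membranes. In the liver, osteopontin and the alpha-v chain with Itgb6 are known from bile duct cells and from ductular reactions, in which duct-like cells expand around the portal tracts.

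The total count ran from 10494080 to 13057467 per library. Levels are CPM, counts set to a common library size after TMM scaling, and are followed by the mean ± SD (n = 4). Changes are log2 fold changes ± SE from edgeR's quasi-likelihood test, and a gene was called where its Benjamini-Hochberg p over the 15851 genes was under 0.05. Whether the libraries of a group came from separate mice is not stated in the labels, and the p-values then cover only the spread among libraries, which may be technical. With whole livers, fewer cells of a type and less RNA per cell cannot be told apart. Of the targeted genes, Nfe2l2, which encodes Nrf2, stood at 11.7 ± 4.24 CPM in Nrf2 TKO and 113 ± 32.7 in DKO (-3.26 ± 0.21, adjusted p = 8.3e-11). Sqstm1, which encodes p62, was at 249, 439, 363 and 774 CPM in the libraries labelled p62 TKO, at 729 to 1063 in DKO and at 508 to 691 in WT (p62 TKO versus DKO -1.07 ± 0.25, adjusted p = 0.0015). Replicate 4 of p62 TKO thus lay above every WT library and above the lowest DKO library, against its label. Without it 5 members were called in p62 TKO versus DKO, 4 against Nrf2 TKO and 8 against WT, as many as with it. With all libraries, 43.8%, 17.5% and 50.9% of all genes tested were called in these comparisons. Equal counts do not settle the genotype of that library. Atg5 went against the labels too, since it was higher than WT in the libraries labelled Atg5 KO (43.0 against 26.8 CPM, 0.68 ± 0.12, adjusted p = 0.00027). It was 83.7 CPM in TSC1 KO (1.64 ± 0.13, adjusted p = 1.5e-08) and 23.4 in DKO (-0.19 ± 0.12, adjusted p = 0.17). Tsc1 was 31.0 CPM in TSC1 KO and 35.1 in WT, a difference that did not pass (-0.18 ± 0.19, adjusted p = 0.56). These counts also take in exons that a deletion leaves in place. Group names are those of the labels, and every direction drawn from them rests on the labels. Defining markers of hepatocytes were present in every group, with Alb at a mean of 58765 CPM in WT and 6655 in DKO.

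Spp1 (ENSMUSG00000029304) lies on the plus strand at chr5:104435118-104441050 of GRCm38 and is the sole member on that chromosome. Cd44 (chr2:102811141-102901665, minus), Itgav (chr2:83724397-83806916, plus), Itgb6 (chr2:60598292-60722643, minus) and Itga6 (chr2:71745616-71858416, plus) lie apart from each other on chromosome 2. Itgb3 (chr11:104608000-104670476, plus) and Itga3 (chr11:95044474-95076801, minus) are on chromosome 11. Itgb1 (chr8:128685654-128733200, plus), Itgb5 (chr16:33829665-33949338, plus) and Itgb8 (chr12:119158022-119238802, minus) complete the set. RefSeq promoter windows of GRCm38.p6 matched 8 of the 10 genes at 11 start sites. The bases before the first start site are shown for the ligand (chr5:104434861-104435110, plus), for Cd44 (chr2:102901666-102901915, minus), for the receptor gene with the largest log2 change between DKO and WT, Itgb6 (chr2:60722644-60722853, minus), and for the receptor gene with the highest level per kilobase, Itgb1 (chr8:128685404-128685653, plus). The 40 bases next to the RefSeq start of Itgb6 lie inside the annotated gene and are left out. Each is written 5′ to 3′ on the strand of the gene, with matches to searched motifs in capitals.
Spp1: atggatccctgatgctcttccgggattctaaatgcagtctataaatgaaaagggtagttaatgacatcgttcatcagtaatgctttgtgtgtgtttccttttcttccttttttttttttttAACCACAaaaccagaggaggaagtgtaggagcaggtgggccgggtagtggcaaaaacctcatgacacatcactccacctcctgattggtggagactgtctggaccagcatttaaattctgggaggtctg
Cd44: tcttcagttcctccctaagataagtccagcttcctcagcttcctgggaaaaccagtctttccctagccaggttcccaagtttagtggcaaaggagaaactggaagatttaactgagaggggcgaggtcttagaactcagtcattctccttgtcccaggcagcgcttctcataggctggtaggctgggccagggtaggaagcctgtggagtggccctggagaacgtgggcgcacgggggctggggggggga
Itgb6: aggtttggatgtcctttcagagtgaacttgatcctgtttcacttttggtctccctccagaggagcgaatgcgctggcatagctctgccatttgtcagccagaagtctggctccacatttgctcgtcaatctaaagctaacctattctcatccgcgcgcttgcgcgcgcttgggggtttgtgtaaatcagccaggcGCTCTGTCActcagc
Itgb1: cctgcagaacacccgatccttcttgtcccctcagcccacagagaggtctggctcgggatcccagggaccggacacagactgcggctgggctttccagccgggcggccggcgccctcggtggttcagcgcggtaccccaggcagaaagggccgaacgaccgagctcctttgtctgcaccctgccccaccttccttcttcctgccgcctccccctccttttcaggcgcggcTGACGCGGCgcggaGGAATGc
The motifs, chosen with the expression values known, were searched on both strands in the 250 bases before each start. They were AP-1 (TGANTCA, in 6.75% of 32851 promoter windows), the antioxidant response element core (TGACNNNGC, 10.2%), TEAD (GGAATG, 12.6%), RUNX (AACCACA, 4.4%), the E-box of TFEB and MYC (CACGTG, 6.02%), the SMAD palindrome (GTCTAGAC, 0.167%) and TCF/LEF (CTTTGAT, 3.21%). The Spp1 window held a RUNX match at -129 to -123 from the start. The first Itgb6 window held the antioxidant core on the other strand at -55 to -47, and that of Itgb1 held the antioxidant core at -21 to -13 and a TEAD match at -7 to -2, which do not overlap. The other match was RUNX at the second start of Itga3. The Cd44 window held none. These are matches of letters, and their part in the levels of these genes was not tested.

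Spp1 had the largest log2 change of the set in every comparison with WT. In both single deletions Itgb6 lay within the SE of it, at 3.33 ± 0.63 in Atg5 KO and 3.26 ± 0.64 in TSC1 KO against 3.37 ± 0.29 for Spp1 in each. By the ratio of mean levels Itgb6 was ahead in Atg5 KO, at 10.7 times WT. The level of Spp1 was 73.9, 74.0, 50.4 and 76.2 CPM in the 4 WT libraries (68.6 ± 12.2). It was 980, 374, 571 and 909 CPM in Atg5 KO (708 ± 286) and 510, 815, 851 and 666 in TSC1 KO (710.5 ± 156). The means were 10.3 and 10.4 times that of WT, and no library of either group overlapped WT. In DKO Spp1 stood at 7680, 6557, 9305 and 6047 CPM (7397 ± 1443), every library above every library of all other groups. The levels were 3159, 2579, 2258 and 3437 CPM in p62 TKO (2858 ± 536) and 1450, 2667, 1610 and 2419 in Nrf2 TKO (2036 ± 597). In the order of mean levels, Atg5 KO and TSC1 KO overlapped, Nrf2 TKO and p62 TKO overlapped, and all other neighbours were apart. Per kilobase of exon, Spp1 ranked 1308 among all genes in WT and 2 in DKO, with ranks of 117 for Atg5 KO and 145 for TSC1 KO. It took 0.0052% ± 0.000745 of all counts in WT and 1.12% ± 0.235 in DKO (SD, n = 4 each).

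**Figure D1:**
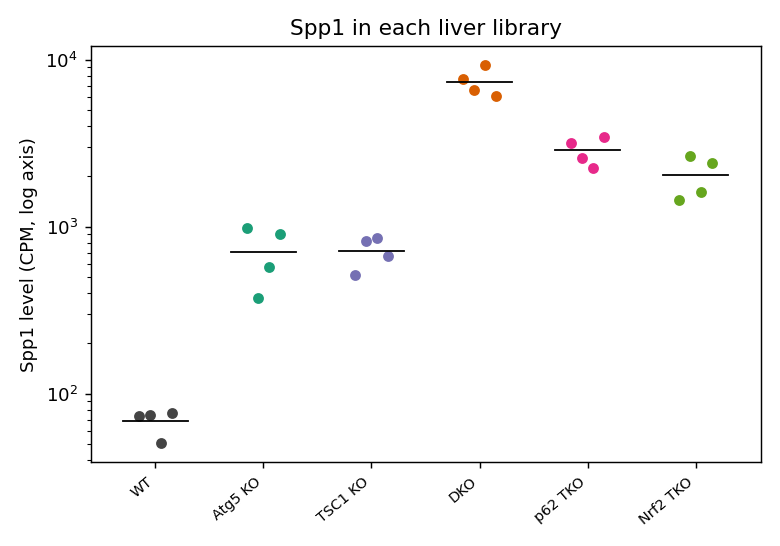
Spp1 level in CPM (log axis) in each of the 24 libraries by genotype. Points are libraries and bars are group means. The 4 WT libraries lie between 50.4 and 76.2 CPM and the 4 DKO libraries between 6047 and 9305, with no overlap between DKO and any other group.

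The log2 change of Spp1 was 3.37 ± 0.29 in Atg5 KO (adjusted p = 3.5e-08), 3.37 ± 0.29 in TSC1 KO (adjusted p = 6.9e-08) and 6.75 ± 0.34 in DKO (adjusted p = 8.1e-13), each against WT. On the log2 scale the DKO change was close to the sum of both single changes. The interaction, which is the part of the DKO change beyond that sum, was 0.01 ± 0.38 (adjusted p = 0.98, 95% interval -0.78 to 0.80), and its sign turned in 9 of 16 fits that left out 1 library. Against DKO, Spp1 fell in p62 TKO (-1.37 ± 0.27, adjusted p = 0.00027) and in Nrf2 TKO (-1.86 ± 0.27, adjusted p = 4.8e-06), in 4 of 4 libraries each. Both triple knockouts kept levels far above WT, with log2 changes of 5.38 ± 0.32 (adjusted p = 6e-11) and 4.89 ± 0.31 (adjusted p = 3.5e-10). The difference between them did not pass (0.49 ± 0.27, adjusted p = 0.22, interval -0.06 to 1.04). Spp1 shares 309 exonic bases with Gm42793 on the same strand, which had 0 counts in WT and 498 over the DKO libraries against 544844 for Spp1.

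Markers of bile duct cells moved with Spp1. The summed level of 12 cholangiocyte markers, all of them detected in every group, was 32.0 to 49.6 CPM in WT and 846 to 1063 in DKO. The single deletions had 130 to 200.2 (Atg5 KO) and 98.7 to 169 (TSC1 KO), and the triple knockouts 214 to 410.4 (p62 TKO) and 225 to 335 (Nrf2 TKO). Against WT, 12 of these 12 markers rose in DKO (median 5.41, 37.1% of all genes tested higher). In Atg5 KO 11 rose (18.6% of all genes) and in TSC1 KO 10 (8.79%). Spp1 per unit of that sum was 1.68 ± 0.314 in WT and 7.57 ± 1.10 in DKO, with 4.41 ± 1.32 for Atg5 KO, 5.18 ± 0.267 for TSC1 KO, 10.5 ± 2.06 for p62 TKO and 7.49 ± 1.08 for Nrf2 TKO. The ratio in WT, 1.49 to 2.15, lay below every library of the other 5 groups, the lowest of which was 2.88. Hepatocyte markers moved the other way in DKO, where the summed level of 12 was 12363 to 18906 CPM against 90059 to 110280 in WT. Of these, 12 of 12 fell (32.3% of all genes lower). The part of these shifts in the level of Spp1 was not tested.

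**Figure D2:**
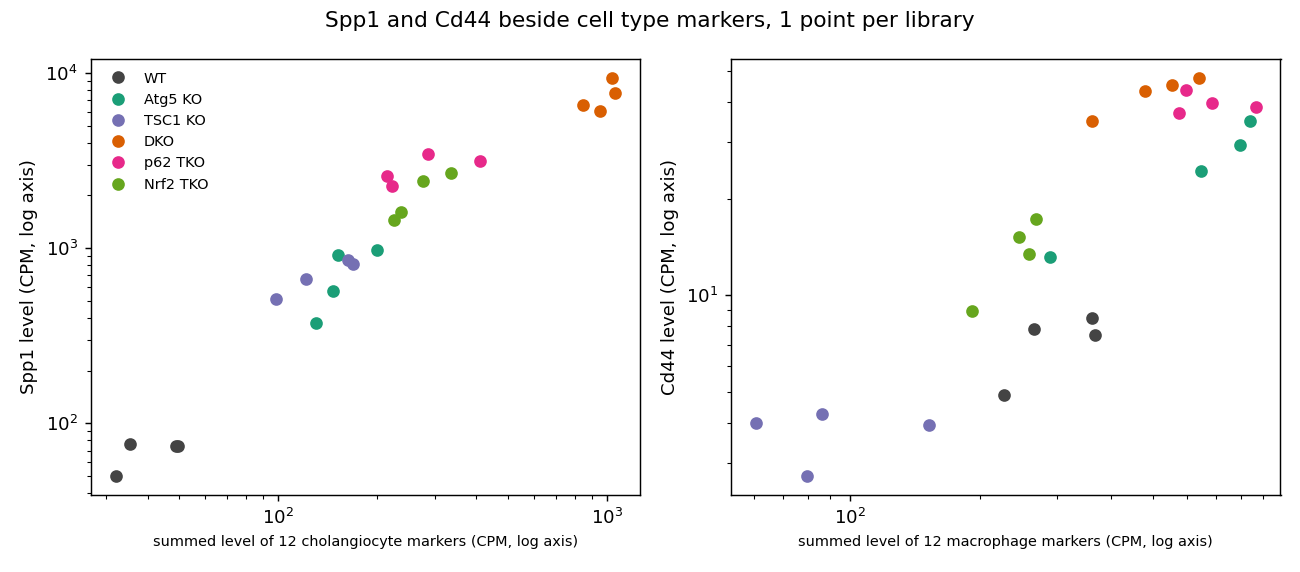
Left, Spp1 level against the summed level of 12 cholangiocyte markers. Right, Cd44 level against the summed level of 12 macrophage and Kupffer cell markers. Each point is 1 of 24 libraries, coloured by genotype, with both axes in CPM and logarithmic. WT libraries lie lowest on the left, and TSC1 KO libraries lie lowest on the right (summed level 60.5 to 152 CPM).

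Counts of the set were read beside the share of all genes called. In DKO versus WT 8 members rose and 0 fell, where 69.3% of all tested genes were called, 37.1% higher and 32.3% lower, so that the number called in either direction lies near the background. The members' median log2 change was 2.98 and that of all genes 0.08. In Atg5 KO 8 rose and 0 fell (29.9% of all genes called, 18.6% higher and 11.3% lower, members' median 1.48, all genes 0.00). In TSC1 KO 4 rose and 2 fell (16.4% called, 8.79% higher and 7.6% lower, medians 0.28 and 0.01). Groups without any overlap between libraries were found, against WT, for 7 members with Atg5 loss (27.8% of all genes), 5 with Tsc1 loss (23.4%) and 8 with both (62.2%). Compared with the single deletions, DKO had 6 members higher and 1 lower than Atg5 KO (56.5% called, 29.2% higher and 27.3% lower) and 8 higher and 0 lower than TSC1 KO (66.7% called, 36.6% higher and 30% lower). Scaling by total counts alone, which moves the median of all genes in DKO versus WT to 1.07, called no member lower in these comparisons. It called 9 higher in Atg5 KO (36.1% of all genes higher), 4 in TSC1 KO (11.7%) and 9 in DKO versus WT (70.4%). DKO had 8 higher than Atg5 KO (57.8%) and 10 higher than TSC1 KO (68%).

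**Figure D3:**
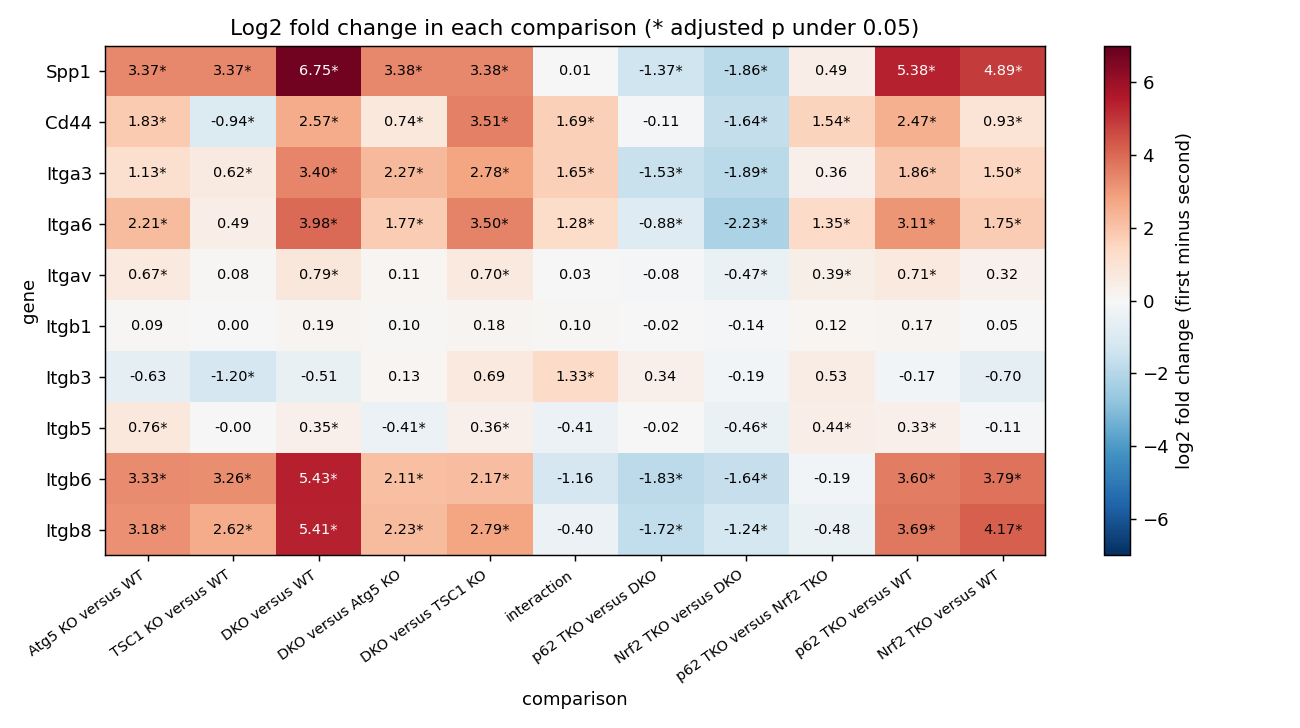
Log2 fold change of each of the 10 genes (rows) in the 10 comparisons of genotypes and the interaction (columns), from edgeR on TMM-scaled counts. Red is higher and blue lower in the group named first, and an asterisk marks an adjusted p under 0.05. Spp1, Itgb6 and Itgb8 carry the largest changes in DKO versus WT (6.75, 5.43 and 5.41), and Itgb1 has no asterisk.

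Cd44, the hyaluronan receptor, was lower than WT in TSC1 KO, where Spp1 was higher. It stood at 8.51, 7.51, 7.83 and 4.87 CPM in WT (7.18 ± 1.59), at 24.4, 13.2, 35 and 29.5 in Atg5 KO (25.5 ± 9.30) and at 2.73, 3.98, 4.25 and 3.94 in TSC1 KO (3.73 ± 0.677). All Atg5 KO libraries were above WT and all TSC1 KO libraries below it. In DKO the level was 45.4, 47.6, 43.5 and 34.9 CPM (42.8 ± 5.53), in p62 TKO 39.8, 37.2, 38.6 and 43.6 (39.8 ± 2.75) and in Nrf2 TKO 17.3, 15.2, 8.91 and 13.4 (13.7 ± 3.57). DKO and p62 TKO overlapped, Nrf2 TKO and Atg5 KO overlapped, and the other neighbours in the order did not.

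Cd44 rose in Atg5 KO (1.83 ± 0.24, adjusted p = 6.4e-06) and in DKO (2.57 ± 0.24, adjusted p = 2.4e-09), and fell in TSC1 KO (-0.94 ± 0.26, adjusted p = 0.016). The last call was lost without WT replicate 1 (-0.81, adjusted p = 0.066), without TSC1 KO replicate 1 (-0.83, adjusted p = 0.052) and with total counts alone (-0.81, adjusted p = 0.075). DKO was higher than Atg5 KO (0.74 ± 0.22, adjusted p = 0.0054), or 0.47 without Atg5 KO replicate 2, the lowest of its group (adjusted p = 0.036). Against DKO, Cd44 fell in Nrf2 TKO (-1.64 ± 0.22, adjusted p = 1.9e-06), while its difference in p62 TKO was -0.11 ± 0.21 (adjusted p = 0.72, interval -0.55 to 0.34). The direct comparison put p62 TKO above Nrf2 TKO (1.54 ± 0.22, adjusted p = 8e-05), in 4 of 4 libraries. Nrf2 TKO was still above WT (0.93 ± 0.24, adjusted p = 0.0038), with no overlap.

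Macrophage markers followed the order of Cd44 in part. The summed level of 12 macrophage and Kupffer cell markers was 227 to 367 CPM in WT, 60.5 to 152 in TSC1 KO and 290.1 to 838 in Atg5 KO, with none of the 12 at 0 in any group. It was 362 to 639 CPM in DKO, 191 to 269 in Nrf2 TKO and 574 to 864 in p62 TKO. Against WT, 8 of the 12 rose and 0 fell in Atg5 KO, 0 rose and 9 fell in TSC1 KO, and 7 rose and 4 fell in DKO, beside the shares of all genes given above. In p62 TKO 10 were higher and 0 lower than in Nrf2 TKO (10.4% and 7.11% of all genes). With TMM scaling, Cd44 and the markers parted in other comparisons. Cd44 was higher in Nrf2 TKO than in WT, where 2 markers were higher and 1 lower (22.4% and 17.1% of all genes) and the mean summed level was 241 CPM against 305. It was higher in DKO than in Atg5 KO, where 2 markers were higher and 4 lower (29.2% and 27.3%) and the mean summed level was 510 CPM against 642. With total counts alone, 3 markers were higher and 0 lower in Nrf2 TKO versus WT (38.9% of all genes higher). In DKO versus Atg5 KO that scaling gave 3 higher and 4 lower (57.8% of all genes higher). The markers' median there was 0.28, against -0.30 with TMM. The summed levels are TMM-scaled and were not computed with total counts alone. Csf1r, 1 of the 12 markers and the receptor for the macrophage growth factor, stood at 32.7 CPM in WT and 15.7 with Tsc1 loss. It was at 104 CPM in DKO, 38.3 in Nrf2 TKO and 72.1 in p62 TKO. Csf1r does not stand for the whole list, of which 4 markers fell in DKO versus WT. The summed level of the 12 had another order, with a higher mean in p62 TKO (680 CPM) than in DKO (510) and a lower one in Nrf2 TKO than in WT. Cd44 as a percentage of the summed markers was 2.37% ± 0.403 in WT and 8.57% ± 0.969 in DKO, with 4.06% ± 0.391 for Atg5 KO, 4.39% ± 1.76 for TSC1 KO, 6.01% ± 1.20 for p62 TKO and 5.61% ± 0.840 for Nrf2 TKO. All 4 DKO libraries (7.44% to 9.65%) lay above those of the other groups, and the part of macrophage content in these levels was not tested.

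Itga3 and Itga6, the alpha chains of laminin receptors, rose with Atg5 loss and most with both losses. Itga3 stood at 9.76, 9.93, 10.2 and 10.4 CPM in WT (10.1 ± 0.261), 23.6, 16.9, 21.4 and 26.2 in Atg5 KO (22 ± 3.93) and 12.6, 16.7, 17.3 and 15 in TSC1 KO (15.4 ± 2.12). In DKO it was 98.6, 109, 112 and 104 CPM (106 ± 5.95), against 49.9, 21.6, 31.0 and 43.6 in p62 TKO (36.5 ± 12.7) and 24.2, 26.9, 25.1 and 38.0 in Nrf2 TKO (28.5 ± 6.39). No DKO library overlapped any other group. Itga6 stood at 2.84, 1.96, 2.33 and 1.58 CPM in WT, 9.68, 5.12, 9.40 and 16.5 in Atg5 KO and 1.97, 4.08, 2.71 and 3.45 in TSC1 KO. Its levels were 35.3, 28.1, 39.3 and 36.2 CPM in DKO, 21.1, 15.3, 15.2 and 24 in p62 TKO and 4.65, 11.4, 4.46 and 8.79 in Nrf2 TKO. For Itga6 the p62 TKO libraries lay between DKO and all other groups with the exception of the highest Atg5 KO library.

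Against WT, Itga3 changed by 1.13 ± 0.20 in Atg5 KO (adjusted p = 0.00021), 0.62 ± 0.20 in TSC1 KO (adjusted p = 0.041) and 3.40 ± 0.21 in DKO (adjusted p = 5.5e-12). The TSC1 KO call was lost in 6 of 8 fits that left out 1 library (adjusted p 0.067 to 0.11), and held without WT replicate 4 or TSC1 KO replicate 1. Itga6 changed by 2.21 ± 0.35 in Atg5 KO (adjusted p = 5.8e-05) and 3.98 ± 0.35 in DKO (adjusted p = 1.1e-09), and in TSC1 KO by 0.49 ± 0.37, which did not pass (adjusted p = 0.4). Both fell from DKO to Nrf2 TKO, by 1.89 ± 0.19 for Itga3 (adjusted p = 2.7e-08) and by 2.23 ± 0.30 for Itga6 (adjusted p = 1.9e-06). In p62 TKO the changes from DKO were -1.53 ± 0.19 for Itga3 (adjusted p = 1.1e-06) and -0.88 ± 0.29 for Itga6 (adjusted p = 0.016), of which the second was lost without p62 TKO replicate 2 (-0.76, adjusted p = 0.06) or replicate 3 (-0.78, adjusted p = 0.054). Itga6 was higher in p62 TKO than in Nrf2 TKO (1.35 ± 0.30, adjusted p = 0.0033), whereas Itga3 did not pass there (0.36 ± 0.19, adjusted p = 0.2, but 0.50 and adjusted p = 0.04 without p62 TKO replicate 2).

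**Figure D4:**
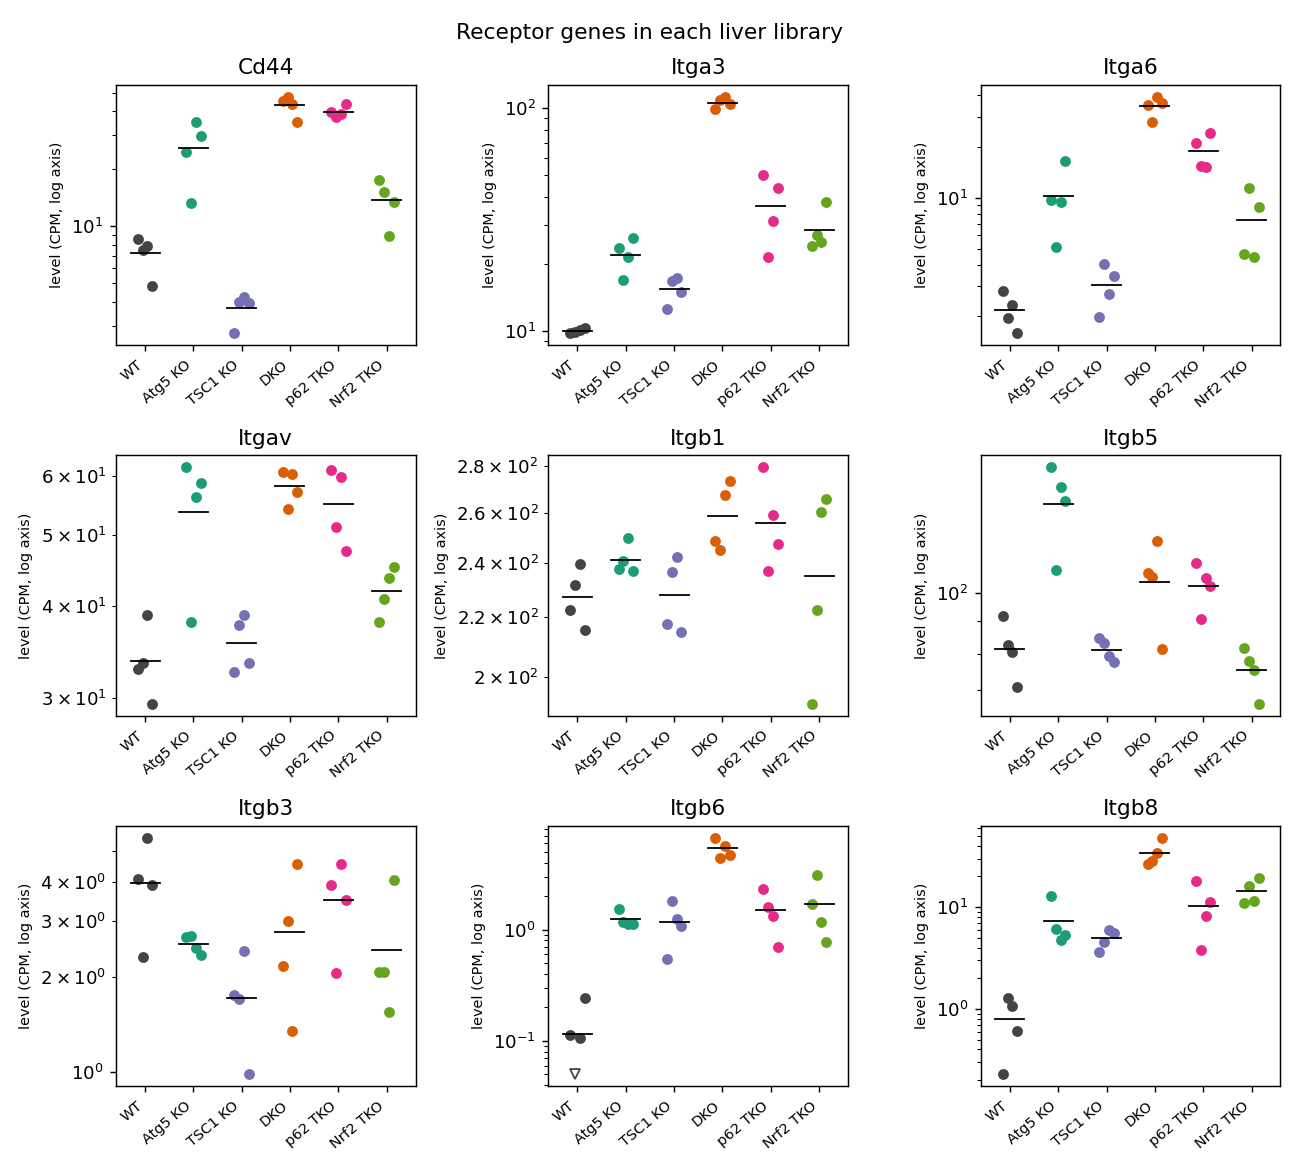
Level in CPM (log axes with different ranges) of the 9 receptor genes in each library by genotype. Points are libraries, bars are group means, and the open triangle at the lower edge marks a WT library with 0 counts of Itgb6. The DKO libraries stand above all other groups for Itga3, Itga6, Itgb6 and Itgb8, and Itgb1 spans 192 to 279 CPM over all libraries.

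Itgav, the shared alpha chain of the osteopontin-binding pairs, rose with Atg5 loss, alone or with Tsc1 loss. It stood at 32.9, 33.5, 38.8 and 29.5 CPM in WT (33.7 ± 3.88), 61.7, 38.1, 56.1 and 58.7 in Atg5 KO (53.7 ± 10.6), 32.6, 37.7, 38.9 and 33.5 in TSC1 KO (35.7 ± 3.11) and 60.7, 54.2, 60.4 and 57.2 in DKO (58.1 ± 3.08). The levels of p62 TKO (54.9 ± 6.61) overlapped DKO, and those of Nrf2 TKO (41.9 ± 3.17) did not. Itgav rose in Atg5 KO (0.67 ± 0.13, adjusted p = 0.00037) and DKO (0.79 ± 0.13, adjusted p = 7.6e-06) and was at 0.08 ± 0.13 in TSC1 KO (adjusted p = 0.7, interval -0.18 to 0.35). It fell from DKO to Nrf2 TKO (-0.47 ± 0.12, adjusted p = 0.0026), and its difference from DKO to p62 TKO was -0.08 ± 0.12 (adjusted p = 0.62). It was higher in p62 TKO than in Nrf2 TKO (0.39 ± 0.12, adjusted p = 0.033), a call lost in 6 of 8 fits that left out 1 library (adjusted p 0.059 to 0.14) and kept without p62 TKO or Nrf2 TKO replicate 4. In Nrf2 TKO versus WT it was at 0.32 ± 0.13 (adjusted p = 0.051) and passed without WT replicate 3 (adjusted p = 0.031) or Nrf2 TKO replicate 1 (adjusted p = 0.05). Itgav shares 634 exonic bases with Gm13684 on the opposite strand, which had at most 38 counts in a group against 4281 for Itgav in DKO.

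Itgb1, the beta chain shared by most matrix receptors, was the most abundant receptor gene per kilobase in every group. Its levels were 227 ± 10.4 CPM in WT and 258 ± 13.9 in DKO, with 241 ± 5.94 for Atg5 KO, 228 ± 13.5 for TSC1 KO, 256 ± 18.2 for p62 TKO and 235 ± 34.7 for Nrf2 TKO. The WT libraries were at 223, 231, 239 and 215 CPM and the DKO libraries at 248, 245, 267 and 273, which did not overlap. Its change in DKO was 0.19 ± 0.10 and did not pass (adjusted p = 0.11, interval -0.03 to 0.40), nor did any of its other comparisons. With total counts alone the DKO change became 1.18 (adjusted p = 5.6e-09), near the 1.07 that this scaling gives the median of all genes. By the same scaling Itgb1 was also called higher than WT in Atg5 KO (0.45, adjusted p = 0.0042), p62 TKO (0.70, adjusted p = 2.8e-05) and Nrf2 TKO (0.36, adjusted p = 0.016).

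Itgb5, a further partner of alpha-v, was highest in Atg5 KO rather than DKO. It stood at 91.8, 82.6, 80.4 and 70.9 CPM in WT (81.4 ± 8.58), 158, 109, 147 and 139.6 in Atg5 KO (138 ± 21.1), 84.8, 83.2, 79.2 and 77.6 in TSC1 KO (81.2 ± 3.35) and 107, 106, 121 and 81.5 in DKO (104 ± 16.4). DKO replicate 4 lay within the range of WT, and the Atg5 KO libraries were all above it. Itgb5 rose in Atg5 KO (0.76 ± 0.12, adjusted p = 6.8e-05) and in DKO (0.35 ± 0.12, adjusted p = 0.013). The DKO call was lost without WT replicate 2 (adjusted p = 0.064), WT replicate 3 (adjusted p = 0.075) or DKO replicate 3 (adjusted p = 0.059), at 0.27 to 0.29. DKO was also above TSC1 KO (0.36 ± 0.12, adjusted p = 0.013), a call lost without TSC1 KO replicate 3 or 4 or DKO replicate 3 (adjusted p 0.069 to 0.085). DKO was lower than Atg5 KO (-0.41 ± 0.12, adjusted p = 0.0056), but 0.20 with total counts alone, which did not pass (adjusted p = 0.27). It fell from DKO to Nrf2 TKO (-0.46 ± 0.12, adjusted p = 0.0024), and stood at -0.02 ± 0.12 in p62 TKO versus DKO (adjusted p = 0.91). p62 TKO was above Nrf2 TKO (0.44 ± 0.12, adjusted p = 0.014), or 0.36 with an adjusted p of 0.056 without Nrf2 TKO replicate 4.

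Itgb3, the alpha-v partner known from platelets, macrophages and osteoclasts, was low in every group. Its levels were 4.08, 2.31, 5.50 and 3.90 CPM in WT (3.95 ± 1.31), 2.67, 2.70, 2.47 and 2.35 in Atg5 KO, 1.75, 1.71, 2.42 and 0.985 in TSC1 KO (1.71 ± 0.585) and 2.17, 3.01, 1.35 and 4.56 in DKO (2.77 ± 1.37). Neighbouring groups in the order of levels all overlapped. Itgb3 was lower in TSC1 KO than in WT (-1.20 ± 0.38, adjusted p = 0.031), a call that held in 2 of 8 fits with 1 library left out, those without WT replicate 2 or TSC1 KO replicate 3 (adjusted p 0.063 to 0.099 in the other 6), and not with total counts alone (-1.07, adjusted p = 0.063). In DKO versus WT it was at -0.51 ± 0.35 (adjusted p = 0.2), and passed without DKO replicate 4 (-0.86, adjusted p = 0.041). DKO versus TSC1 KO passed without DKO replicate 3 (0.91, adjusted p = 0.034) and Nrf2 TKO versus WT without Nrf2 TKO replicate 4 (-1.06, adjusted p = 0.03). The summed level of 8 platelet markers was 3.81 to 7.20 CPM in WT, 4.17 to 8.27 in TSC1 KO and 6.30 to 10.2 in DKO.

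Itgb6 and Itgb8, whose pairs with alpha-v activate TGF-beta, were close to undetected in WT and rose in all 5 other groups. Itgb6 had 4 counts over the 4 WT libraries, 1 of which had none, and 394 over the DKO libraries. Its level was 0.113, 0, 0.106 and 0.244 CPM in WT, 1.52, 1.17, 1.11 and 1.13 in Atg5 KO, 0.547, 1.80, 1.26 and 1.08 in TSC1 KO and 6.68, 4.36, 5.68 and 4.71 in DKO. The triple knockouts overlapped the single deletions, at 2.34, 1.61, 1.32 and 0.701 CPM in p62 TKO and 1.68, 3.12, 1.16 and 0.773 in Nrf2 TKO. Itgb8 stood at 0.227, 1.27, 1.06 and 0.609 CPM in WT, 12.9, 6.11, 4.78 and 5.35 in Atg5 KO, 3.61, 4.55, 5.99 and 5.62 in TSC1 KO and 26.3, 28.2, 34.2 and 48.0 in DKO. Its triple knockout levels were 18.1, 3.76, 8.24 and 11.3 CPM with p62 loss and 10.9, 16.3, 11.4 and 19.2 with Nrf2 loss. For both genes every DKO library lay above all others, and of the 4 groups between WT and DKO neighbours in the order of means overlapped. Nrf2 TKO and TSC1 KO did not overlap for Itgb8.

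The log2 change of Itgb6 from WT was 3.33 ± 0.63 in Atg5 KO (adjusted p = 0.00038), 3.26 ± 0.64 in TSC1 KO (adjusted p = 0.0014) and 5.43 ± 0.56 in DKO (adjusted p = 1.3e-08), with the WT level set by 4 counts. That of Itgb8 was 3.18 ± 0.50 (adjusted p = 7.7e-05), 2.62 ± 0.52 (adjusted p = 0.0017) and 5.41 ± 0.49 (adjusted p = 3e-09) in the same order. Their interactions did not pass, at -1.16 ± 0.77 for Itgb6 (adjusted p = 0.26) and -0.40 ± 0.64 for Itgb8 (adjusted p = 0.67). From DKO, Itgb6 fell by 1.83 ± 0.38 in p62 TKO (adjusted p = 0.00044) and by 1.64 ± 0.38 in Nrf2 TKO (adjusted p = 0.0008). Itgb8 fell by 1.72 ± 0.37 (adjusted p = 0.00067) and by 1.24 ± 0.36 (adjusted p = 0.0059). Neither differed between the triple knockouts beyond the test (-0.19 ± 0.40, interval -1.02 to 0.63, and -0.48 ± 0.37, interval -1.24 to 0.29).

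The make-up of the alpha-v partners was compared per kilobase of exon. Of the summed level of Itgb1, Itgb3, Itgb5, Itgb6 and Itgb8, Itgb1 held 70.2% ± 2.04 in WT and 65.4% ± 3.09 in DKO, and Itgb5 held 28.8% ± 2.14 and 30.1% ± 4.13. Itgb8 went from 0.0898% ± 0.0513 in WT to 0.658% ± 0.315 in Atg5 KO, 0.562% ± 0.123 in TSC1 KO and 3.19% ± 0.918 in DKO. Itgb6 went from 0.0211% ± 0.0192 to 0.175% ± 0.0236, 0.206% ± 0.0856 and 0.778% ± 0.151. Itgb6 and Itgb8, which had the largest fold changes of these 5 beta-chain genes in DKO versus WT, thus remained a small share of their summed level. Both lay below Itgb1 and Itgb5 in every group. Within DKO the order per kilobase was Spp1 (4489 CPM per kb), Itgb1 (63.3), Itgb5 (29.2), Itga3 (18.6), Cd44 (6.32), Itgav (5.41), Itga6 (3.85), Itgb8 (3.09), Itgb6 (0.754) and Itgb3 (0.470).

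The interaction of both deletions was tested for every member. It was positive for 4 members and negative for 0, where 34.8% of all genes were called, 15.5% positive and 19.3% negative (members' median 0.06, all genes 0.03). Cd44 (1.69 ± 0.34, adjusted p = 0.00048) and Itga3 (1.65 ± 0.28, adjusted p = 7.3e-05) rose in DKO by more than the sum of both single changes. Itga6 (1.28 ± 0.48, adjusted p = 0.04) lost its call in 12 of 16 fits that left out 1 library (adjusted p 0.059 to 0.13), and held without replicate 4 of WT or Atg5 KO or replicate 2 of TSC1 KO or DKO. Itgb3 (1.33 ± 0.51, adjusted p = 0.049) lost it in 13 of 16 (adjusted p 0.051 to 0.16), and held without WT replicate 2, TSC1 KO replicate 3 or DKO replicate 3. Itgb5 was at -0.41 ± 0.17 (adjusted p = 0.068) and passed in 5 of 16 such fits (adjusted p 0.0089 to 0.048), those without WT replicate 1, Atg5 KO replicate 2, TSC1 KO replicate 3 or 4, or DKO replicate 3. With total counts alone 5 members were called higher and 0 lower (35.5% of all genes higher).

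Loss of p62 or Nrf2 on top of both deletions came with lower levels of Spp1. In p62 TKO 0 members were higher and 5 lower than in DKO (43.8% of all genes called, 22.3% higher and 21.5% lower), namely Spp1, Itga3, Itga6, Itgb6 and Itgb8, with a median of -0.49 against -0.02 for all genes. In Nrf2 TKO 0 were higher and 8 lower (55.9% called, 26.7% higher and 29.2% lower, medians -1.44 and -0.05), the same 5 with Cd44, Itgav and Itgb5. Both comparisons share the DKO libraries, so that the lists are not independent. In the direct comparison p62 TKO was higher for 4 members and lower for 0 (17.5% called, 10.4% higher and 7.11% lower, medians 0.42 and -0.01), which were Cd44, Itgav, Itgb5 and Itga6. Against WT, 8 members were higher and 0 lower in p62 TKO (50.9% called, 28% higher and 22.9% lower), and 6 higher and 0 lower in Nrf2 TKO (39.5% called, 22.4% higher and 17.1% lower). Itgb5 in p62 TKO versus WT (0.33 ± 0.12, adjusted p = 0.026) lost its call without WT replicates 2, 3 or 4 or p62 TKO replicates 1 or 3 (adjusted p 0.055 to 0.082). Against DKO, total counts alone gave 0 higher and 8 lower in p62 TKO (47.6% of all genes lower) and 0 higher and 10 lower in Nrf2 TKO (59.8%). In p62 TKO the calls then took in Itgav (-0.54, adjusted p = 0.0071), Itgb5 (-0.48, adjusted p = 0.014) and Itgb1 (-0.47, adjusted p = 0.0016). These lie near the -0.48 that this scaling gives the median of all genes there. It gave 5 higher and 0 lower between p62 TKO and Nrf2 TKO (18.8% of all genes higher). Against WT it gave 9 higher and 0 lower in p62 TKO (54.1%) and 8 and 0 in Nrf2 TKO (38.9%).

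Genes with the most similar course over the 24 libraries were found by the root mean square difference of log2 CPM, each gene centred on its own mean, among 11362 genes. For Spp1 they were Cd24a (0.44), Tesc (0.46), Tspan8 (0.46), St14 (0.50) and Ehf (0.51), beside a spread of 2.15 for Spp1 itself. Cd24a, Tspan8, St14 and Ehf are known from epithelia, and Tspan8 is in the cholangiocyte list. For Cd44 they were Ctss (0.30), Pld4 (0.34) and Lyz2 (0.35), beside a spread of 1.31, and Ctss and Lyz2 are known from macrophages. Itgb8 was nearest to Grhl2 (0.43), Epcam (0.44) and Esrp1 (0.46), which are epithelial genes, with a spread of 1.71. Itga3 was nearest to St3gal2 (0.21), Ezr (0.22) and Cers5 (0.27), and Itga6 to Tagln2 (0.29), Iqgap1 (0.32) and Cyba (0.36). Itgb6, with few counts, was nearest to Tspan3 (0.48), Dync2li1 (0.49) and Mmp11 (0.50). For Itgav (Sptan1, Dgkz and Ywhaz, 0.17 to 0.18), Itgb5 (Abhd12, Snx5 and Micu2, 0.18 to 0.20), Itgb1 (Rhoa, E2f4 and Vps26a, 0.10 to 0.11) and Itgb3 (Rnf19a, Spty2d1 and Dcun1d3, 0.43 to 0.45) the members' own spread was small, at 0.34, 0.33, 0.12 and 0.57.

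Over all genes tested, 37.1% rose and 32.3% fell in DKO versus WT, with a median of 0.08, and the lists that follow were set beside that. Among the other integrin chains, 7 of 14 tested alpha genes rose and 2 fell in DKO versus WT (median 0.99), and 3 of 4 beta genes rose and 1 fell. Itgb4, the laminin receptor partner of Itga6, rose most among the named ones (6.70 ± 0.38, adjusted p = 2.6e-12), from 0.596 CPM in WT to 3.72 in Atg5 KO, 3.09 in TSC1 KO and 63.2 in DKO, with 11.8 in p62 TKO and 9.56 in Nrf2 TKO. Itga2, a collagen receptor chain of epithelia and platelets, rose from 0.292 to 5.98 CPM (4.34 ± 0.47, adjusted p = 2.3e-08). The leukocyte chains Itgam (3.21 ± 0.36), Itgax (3.11 ± 0.40), Itgb2 (1.57 ± 0.31) and Itgb7 (1.94 ± 0.33) rose as well, at 5.69 to 13.4 CPM in DKO. Itga1 and Itga5, with the highest mean CPM of these alpha genes, did not pass (-0.09 ± 0.12 and 0.30 ± 0.17), though both passed as higher with total counts alone (0.91 and 1.29) and Itga5 passed without WT replicate 2 (0.39, adjusted p = 0.049). Itga7, Itga10 and Itgb2l fell (-1.94, -1.34 and -1.60) and are named after their values were seen. Of the small integrin-binding glycoproteins, the family of osteopontin, Dmp1 did not pass the filter on low counts, and Ibsp, Dspp and Mepe were not analysed here.

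Other matrix ligands did not share one direction. Of 14 tested genes of Arg-Gly-Asp and matricellular proteins, 11 rose and 2 fell in DKO versus WT (median 2.65). Mfge8, a bridging ligand of alpha-v integrins, rose from 9.98 to 352 CPM (5.14 ± 0.32, adjusted p = 9.7e-12), and Ccn2, a matricellular protein, from 7.01 to 138 (4.29 ± 0.40, adjusted p = 5.8e-09). Vtn (vitronectin, -2.56 ± 0.21, adjusted p = 3.9e-10) and Fn1 (fibronectin, -1.17 ± 0.22, adjusted p = 6.1e-05), plasma proteins made by hepatocytes and with the highest mean CPM of the list, fell, and Fn1 did not pass with total counts alone (-0.16, adjusted p = 0.45). Laminin chains rose in 9 of 11 and fell in 1, Lamc3 (median 1.97). Lama5 went from 3.53 to 241 CPM (6.08 ± 0.31, adjusted p = 1.4e-12) and Lamb2 from 4.63 to 91.1 (4.29 ± 0.33, adjusted p = 1.8e-10). In p62 TKO versus DKO 9 laminin genes fell and 0 rose, where 21.5% of all genes fell and 22.3% rose. In Nrf2 TKO versus DKO 7 fell and 1 rose (29.2% and 26.7% of all genes).

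Of 9 genes of TGF-beta ligands and of proteins that hold them latent, 7 rose and 0 fell in DKO versus WT (median 1.44). Tgfb2 went from 0.677 to 76.0 CPM (6.78 ± 0.41, adjusted p = 6.7e-12) and Ltbp3, a latent TGF-beta binding protein, from 2.96 to 60.6 (4.34 ± 0.29, adjusted p = 1.4e-11). Of the enzymes that cut or modify osteopontin, 3 of 7 rose and 1 fell. Mmp7, a metalloproteinase of duct epithelium, rose from 0.261 CPM in WT to 820.2 in DKO, with 18 for Atg5 KO, 35.7 for TSC1 KO, 100.2 for p62 TKO and 227 for Nrf2 TKO, and F2, the gene of thrombin, fell from 2298 to 298 CPM (-2.95 ± 0.20, adjusted p = 1.9e-11). Of the adaptors and kinases inside integrin adhesions, 13 of 22 rose and 2 fell (median 0.89), the latter being Fermt2 and Ptk2b. Src, an adhesion kinase, went from 2.03 to 58.1 CPM (4.84 ± 0.33, adjusted p = 2.5e-11) and Fermt1, the kindlin of epithelia, from 0.958 to 24.4 (4.65 ± 0.31, adjusted p = 1.4e-11), whereas Fermt2, its widely expressed relative, fell from 201.9 to 53.4 (-1.92 ± 0.15, adjusted p = 1.6e-10). Of genes around CD44 and hyaluronan, 9 of 14 rose and 5 fell, the latter being Hyal1, Hyal2, Stab2, Rdx and Esrp2, of which Rdx turned from -0.50 to 0.49 with total counts alone. Ezr, which links CD44 to actin, rose from 8.83 to 94.9 CPM (3.43 ± 0.26, adjusted p = 1.4e-10), and of the splicing factors that set the CD44 isoform Esrp1 rose from 0.254 to 21 (6.30 ± 0.46, adjusted p = 5.4e-11) while Esrp2 fell from 105 to 32.3 (-1.70 ± 0.14, adjusted p = 2e-10). With total counts alone the splits of higher and lower became 11 and 1 for alpha chains, 3 and 0 for beta chains and 11 and 1 for matrix ligands. They became 10 and 0 for laminins, 9 and 0 for TGF-beta ligands and the proteins that hold them latent, and 21 and 1 for adaptors. For the CD44 genes they were 10 and 2, and for the enzymes 6 and 1. The counts are per gene, so Cd44 isoforms were not resolved.

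Markers of the remaining cell types were read beside the 37.1% of all genes that rose and the 32.3% that fell in DKO versus WT. Of 12 stellate cell and myofibroblast markers 7 rose and 3 fell in DKO versus WT, and the summed level was 192 to 314 CPM in WT and 739 to 921 in DKO. T and NK cell markers rose in 7 of 9 tested and 0 fell (3.41 to 5.79 CPM in WT and 14.6 to 28.8 in DKO). The endothelial, B cell, neutrophil and platelet lists had shares near or below that background. Of 10 endothelial markers 4 rose and 2 fell (133 to 268 CPM in WT and 217 to 238 in DKO), of 6 B cell markers and of 6 tested neutrophil markers 1 rose and 0 fell, with Ly6g at 0 in WT and TSC1 KO, and of 4 tested platelet markers 1 rose and 1 fell. With total counts alone, stellate cell and myofibroblast markers were higher in 9 and lower in 0, and T and NK cell markers in 8 and 0. Endothelial markers were then higher in 6 and lower in 1, B cell markers in 3 and 0, neutrophil markers in 5 and 0 and platelet markers in 2 and 0. That scaling called 70.4% of all genes higher in DKO versus WT. The part of these cell types in the members' levels was not tested.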

How the data were processed

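Liver RNA of 24 libraries, 4 per genotype, was sequenced as polyA-selected, single 75 bp reads, per the labels' protocols. The deposited values are raw counts per gene, and the authors used Trimmomatic 0.36, HISAT2 2.1.0 and HTSeq with GRCm38, per the submitters' processing notes. The HTSeq version, its strand setting and the annotation were not given in the sources used here. Reads of overlapping genes may be split or shared. Of 33019 identifiers, 32953 were matched to a symbol and coordinates in GENCODE M21 (GRCm38) and 66 were not. Genes were filtered with filterByExpr over the 6 groups, which left 15851, and tested with edgeR 4.0.16 in R 4.3.3 (TMM scaling, robust quasi-likelihood fit of all 24 libraries, 1 mean per genotype, 18 residual degrees of freedom, Benjamini-Hochberg adjustment over all genes tested). The fit was tested on simulated data. CPM was computed on TMM-scaled totals, and CPM per kb on the union of exons. Total counts of 10494080 to 13057467 per library limit the precision of low genes such as Itgb6.

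The members and gene lists were chosen with earlier results of these data known. Named genes were the members, the targeted genes, the 5 (Spp1) or 3 (other members) genes of most similar course with at least 5 CPM in a group, and from each list up to 3 genes with the smallest adjusted p in DKO versus WT and up to 2 with the highest level. Further genes that fell are named where stated. Alternatives were DESeq2 1.42.0, DESeq2 size factors, total counts alone, no filter, only the groups compared, a replicate block and leaving out each library. Sequences are RefSeq promoters of GRCm38.p6, and figures were drawn with matplotlib 3.10.9. The labels give no sex, litter or batch, so none was modelled.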

Additional observations from a re-analysis of the deposited data

Results flagged for a closer look

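Within groups, 60 sets of 4 libraries (10 genes in 6 groups) were checked for a library that stands apart by Dixon's test, which chance passes in about 1 in 20 sets. There were 3. Spp1 in WT had a lowest library of 50.4 CPM, with the others at 73.9 to 76.2. Itgb6 in Atg5 KO had a highest library of 1.52 CPM, with the others at 1.11 to 1.17, and Itgb8 in Atg5 KO a highest library of 12.9 CPM, with the others at 4.78 to 6.11. The last 2 are the same library, Atg5 KO replicate 1.

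The effect of Atg5 loss differed with the state of Tsc1, by the edgeR test of the interaction, for 4 of the 10 genes. Of all genes tested, 34.8% were called (15.5% positive and 19.3% negative), so that the number called lies near the background. The log2 interaction was 1.69 for Cd44 (adjusted p = 0.00048), 1.65 for Itga3 (adjusted p = 7.3e-05), 1.33 for Itgb3 (adjusted p = 0.049) and 1.28 for Itga6 (adjusted p = 0.04). Those of Itgb3 and Itga6 lost their calls in 13 and 12 of 16 fits with 1 library left out.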

How the results depend on the processing

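Of 1617 member values under the alternatives, 1463 kept their direction and side of the threshold, 69 lost their call, 31 gained one and 54 changed sign. The cause of these changes was not tested. Itgb5 in TSC1 KO versus WT, at -0.0037, became 0.0143 (DESeq2), 0.0146 (DESeq2 size factors), 0.125 (total counts alone), 0.012 (no filter), 0.0007 (only the groups compared) and 0.0018 (replicate block). The Spp1 interaction became -0.0043, -0.0041 and -0.0614 with DESeq2, its size factors and only the groups compared, and the last gave -0.0393 for Itgav. Total counts alone gave 0.474 for Itgb3 in DKO versus WT, 0.196 for Itgb5 in DKO versus Atg5 KO, 0.0709 and 0.0887 for the interactions of Itgb5 and Itgb8, -0.111 and 0.363 for Itgb3 in p62 TKO versus DKO and versus WT, and 0.218 for Itgb5 in Nrf2 TKO versus WT. In DKO versus WT it gave 0.907 for Itga1 and 0.49 for Rdx, and no filter gave 0.0013 for Itga1. The alternatives for these pathway genes were chosen after seeing the data. With total counts alone, 8 members were called in p62 TKO versus DKO (5 with TMM), and the share of calls that were higher ran from 16.1% to 94.2% over the comparisons, against 44.4% to 62.1% with TMM. With no filter 2 members were called in the interaction (4 with it). With only the groups compared, 1677 genes were called in p62 TKO versus Nrf2 TKO (2776 in the joint fit) and 3691 in Nrf2 TKO versus WT (6262).

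Leaving out 1 library at a time gave 3 to 5 members and 1724 to 2272 genes called in TSC1 KO versus WT (6 and 2598 with all libraries), and 2 to 4 members in the interaction. Signs changed within these ranges of log2 change. Itgb1 ran from -0.0372 to 0.0382 in TSC1 KO versus WT, -0.0597 to 0.0492 in p62 TKO versus DKO, -0.157 to 0.0175 in Nrf2 TKO versus DKO, -0.0007 to 0.157 in p62 TKO versus Nrf2 TKO and -0.0263 to 0.132 in Nrf2 TKO versus WT. Itgb5 ran from -0.032 to 0.102 in TSC1 KO versus WT and -0.123 to 0.0643 in p62 TKO versus DKO. In DKO versus Atg5 KO the ranges were -0.0826 to 0.185 for Itgav and -0.242 to 0.34 for Itgb3. The ranges were -0.484 to 0.17 for Itgb3 in Nrf2 TKO versus DKO and -0.503 to 0.31 for Itgb6 in p62 TKO versus Nrf2 TKO. Those of the interaction were -0.257 to 0.207 for Spp1, -0.157 to 0.103 for Itgav and -0.759 to 0.0341 for Itgb8.

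Whether same-numbered libraries of different groups share a litter or batch is not given in the labels. Over 60 pairs the correlation of their deviations ran from -0.28 to 0.26 (median -0.01), with 7 over 0.1. The own number was the best match in 18 of the 60, among them every pair of WT and TSC1 KO (0.02 to 0.07). Such correlations cannot exclude a shared origin. A replicate block moved the interactions of Itgb3 (1.27, adjusted p = 0.07) and Itgb5 (-0.42, adjusted p = 0.04) and Itgav in Nrf2 TKO versus WT (0.32, adjusted p = 0.042) across the threshold of edgeR's test, and no other member call. Itgb6 had 4 counts in all over the WT libraries, which limits its precision.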
